A study of Mus musculus with 6 samples.

Results

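The genes of the DNA replication machinery were measured in S3 and S1 erythroid cells of the mouse fetal liver. The set was chosen as a list of 50 gene symbols, and a gene was matched through array features annotated with that symbol alone. Of the 50, 49 were measured and Chaf1a was not analysed here. They are 49 of 18193 genes with such a feature, and all 49 were among the 11959 genes bright enough to be tested. Each gene is represented by its brightest probe set (a group of short probes read together) over the 6 arrays.

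S3 and S1 are sorting gates for red cell precursors, set on the transferrin receptor CD71 and the red cell antigen Ter119 after staining for other lineages, and S3 cells are the more mature. All cells came from Balb/C fetal livers, and the labels give no allele, transgene or drug treatment for either gate. Each gate was sorted on 3 separate days, which gave 3 S3 and 3 S1 arrays. The stage label gives embryonic day 13.5 for S3 and 12.5 for S1, whereas the source label gives 13.5 for every array, so embryo age and gate cannot be told apart for any value here. Values are log2 signals as deposited, already scaled by the authors to a few control transcripts, and levels of single genes are not compared with each other. In sorted bulk RNA, fewer cells of a type and less RNA per cell cannot be told apart.

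A chromosome is copied once per cell cycle. The origin recognition complex (ORC) marks start sites, and Cdc6 and Cdt1 load the MCM helicase ring there, a step that geminin (Gmnn) blocks by binding Cdt1. Cyclin E with its kinase partner and the Cdc7-Dbf4 kinase then fire origins, Cdc45 and the GINS complex join MCM to form the active helicase, and polymerases, a sliding clamp and histone chaperones follow the fork. Fetal erythroblasts keep dividing while they mature.

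Many genes of this machinery are textbook targets of E2F transcription factors, and a few members carried E2F-type words just upstream of their annotated starts. The words searched on both strands in the 250 bases before each RefSeq start were TTTCCCGC, TTTGGCGC, TTTCGCGC and TTTGCCGC, and words on opposite strands may overlap. Of the 40 members with a promoter in the RefSeq table (build GRCm38.p6), 9 held at least 1 word (22.5%), against 380 of 9743 tested genes (3.90%) and 583 of 27025 genes of the whole table (2.16%). The GC box GGGCGG was in 29 of 40 members (72.5%) against 62.5% of tested genes, CCAAT in 23 of 40 (57.5%) against 40.6%, and the GATA words AGATAA or TGATAA in 3 of 40 (7.5%) against 11.6%. A match is a string of letters and no measured binding site, and these windows were not tested against the array values. The 4 windows below, read 5′ to 3′ on the gene's strand, show such words in Mcm5 and Mcm6, a GINS subunit and a clamp loader subunit, with the words in capitals. They lie at chr8:75109296-75109427 (plus strand), chr1:128359706-128359875 (minus strand), chr8:95633458-95633558 (plus strand) and chr5:151651209-151651278 (minus strand). In Mcm5 (153 bases before the start) and in the first run of Mcm6 (110 bases before), words of both strands overlap. The second word of Mcm6 lies 47 bases, that of Gins3 41 bases and that of Rfc3 10 bases before the start.
Mcm5: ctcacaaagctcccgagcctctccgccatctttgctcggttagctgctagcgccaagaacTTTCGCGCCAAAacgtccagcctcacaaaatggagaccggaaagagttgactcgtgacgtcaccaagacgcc
Mcm6: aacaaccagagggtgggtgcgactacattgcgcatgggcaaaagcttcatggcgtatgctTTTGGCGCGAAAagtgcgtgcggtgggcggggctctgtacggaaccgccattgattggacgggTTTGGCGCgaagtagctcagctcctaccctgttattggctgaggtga
Gins3: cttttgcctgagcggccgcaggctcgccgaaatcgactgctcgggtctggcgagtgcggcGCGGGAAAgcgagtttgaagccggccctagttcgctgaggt
Rfc3: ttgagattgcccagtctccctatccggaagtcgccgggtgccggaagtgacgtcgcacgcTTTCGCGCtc
The other members with a word were Cdc6, Mcm7, Orc1, Orc3 and Pola1. Of the 9, Orc3 was called lower in S3 with the array block described next, and the other 8 were not called on the deposited scale with or without it.

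The 6 arrays fell into 2 kinds that bear on every value. The actin transcript has probe sets near its 5′ and 3′ ends, and the 5′ reading was far below the 3′ reading on S3 replicate 2, S1 replicate 1 and S1 replicate 2 (log2 difference -2.59 to -2.08), called short arrays here. The gap was small on S3 replicates 1 and 3 and S1 replicate 3 (-0.56 to -0.45), called long arrays. Because 2 of 3 S3 arrays and 1 of 3 S1 arrays were long, a gene that reads higher on long arrays is pushed up in a plain S3 minus S1 difference. Of the 49 members, 43 read higher on long arrays, with a median log2 difference between long and short of 0.71 (range -0.64 to 2.26), against a median of 0.57 over all tested genes. Differences are therefore given both from the plain fit and from a fit with the array class as a block, which compares S3 with S1 within short and within long arrays. The plain fit is the main one and the block fit stands beside it, for a split known from earlier results of these data.

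The gates themselves were distinct. Of 8 measured erythroid markers 4 were called higher in S3 and 0 lower, Slc4a1, Alas2, Hbb-bh1 and Hba-x, and of 4 tested early progenitor markers 3 were called lower, Kit, Gata2 and Myb. Kit, the stem cell factor receptor, averaged log2 0.84 in S3 and 7.68 in S1. Of the other cell types, 3 of 5 megakaryocyte markers (Pf4, Gp9, Ppbp) and 1 of 6 hepatoblast markers (Ttr) were called higher in S3 within array classes. Prtn3, of 5 tested granulocyte markers, and Ptprcap, the 1 tested lymphoid marker, were called lower. The summed megakaryocyte marker signal was log2 8.35 to 8.44 in S3 and 6.26 to 7.44 in S1, with all 5 above background on every array. The summed hepatoblast signal was 7.73 to 9.80 in S3 and 7.96 to 8.36 in S1, with 6 of 6 above background on all S3 and 5 of 6 on all S1 arrays. Of 8 macrophage markers, 3 were above background on all arrays of each gate, and their summed signal was 5.05 to 6.46 in S3 and 4.70 to 6.84 in S1. C1qc and Cd5l, macrophage markers, and Cd3e, a T cell marker, averaged below 0 in both gates. The summed lymphoid signal was 3.71 to 4.10 in S3 and 6.18 to 7.39 in S1. Ptprcap averaged 3.69 in S3 and 6.78 in S1, and was the 1 of 4 lymphoid markers above background on all arrays. The summed granulocyte signal was 3.74 to 7.19 in S3 and 4.28 to 6.69 in S1. The part of these cells in the replication results was not tested.

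All 49 members lay above background on all 6 arrays, S3 and S1 alike, with mean log2 signals of 6.11 to 10.6. In the plain fit limma called 0 members higher and 0 lower at an adjusted p under 0.05, while 2.53% of all tested genes were called higher and 12.8% lower. Among the members, 6 had an unadjusted p under 0.05, with Asf1b, Gins4 and Lig1 higher and Pold1, Rpa2 and Pold3 lower. Their adjusted p-values were lowest for Asf1b (limma adjusted p = 0.0570). The members' median log2 change was 0.18, against -0.33 for all tested genes. With an array left out the members' median ran from 0.02 (without S3 replicate 3) to 0.42 (without S1 replicate 3). In the fit of all arrays, 31 of the 49 differences lay above 0. On simulated arrays of this number, 100 of 11959 genes were changed at each size. There the plain fit recovered 0% of changes of log2 1 and 10% of log2 2, the block fit 20% and 55%. A gene that was not called may therefore still differ.

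Within array classes a few members were called in each direction. The higher calls came at a share near that of genes at least as bright, the lower calls at a smaller share. In S3, 4 members were called higher, namely Gins4, Lig1, Asf1b and Pcna (8.16%, against 5.81% of all genes). Another 8 were called lower, namely Pold2, Timeless, Orc4, Orc3, Pold3, Pold1, Rfc5 and Rpa2 (16.3%, against 41.2% of all genes). Among the 5818 tested genes at least as bright as the dimmest member, 7.92% were called higher and 52.2% lower. These 12 genes were given in full after their values were seen, and in the plain fit their limma adjusted p-values ran from 0.0570 (Asf1b) to 0.999 (Orc3). The members' median change was -0.08, against -0.54 over all genes and -0.49 over those bright genes. The difference was smaller than 0.2 on the log2 scale, in either direction, for 26 of the 49.

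**Figure D1:**
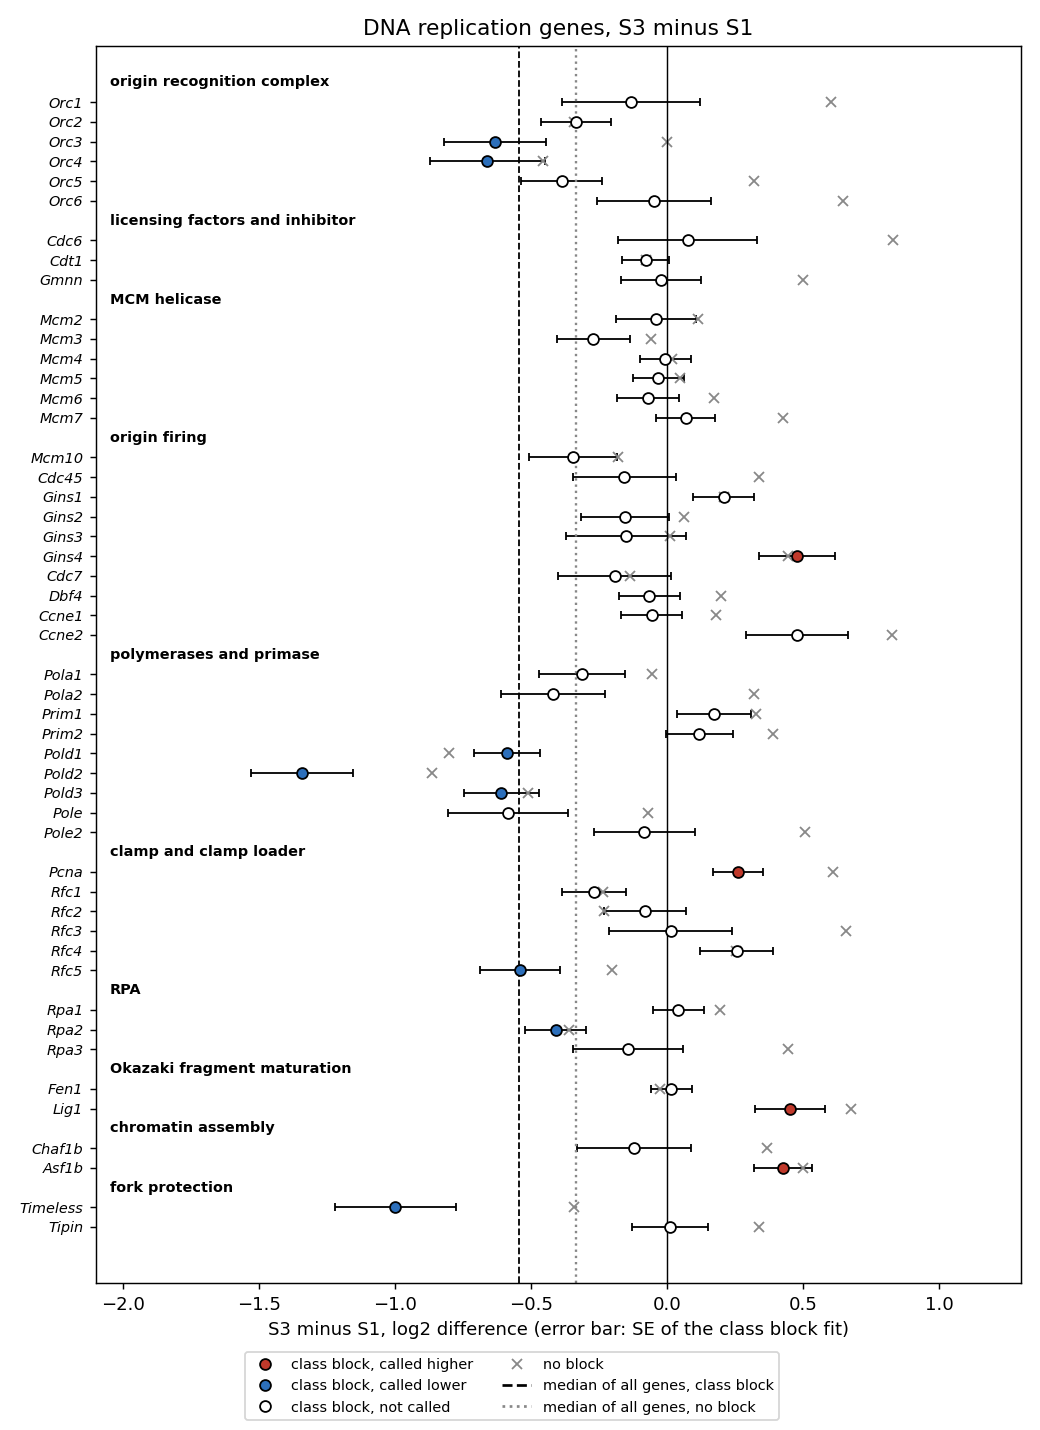
S3 minus S1 log2 difference of each of the 49 measured members, grouped by role. Circles with SE bars are the class block fit (red called higher, blue called lower, white not called), grey crosses the plain fit, and the dashed and dotted lines the medians of all genes (-0.54 and -0.33). Most circles lie between the dashed line and 0, and most crosses lie to the right of their circle.

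These calls depended on the scale and on single arrays. The class block compares few arrays per class, and without S3 replicate 2, which leaves the long arrays alone to inform the difference, it called 0 members higher and 5 lower, and 355 of all genes higher and 2877 lower. Without S1 replicate 3, which leaves the short arrays alone, it called 0 members higher and 1 lower (Pold2), and 468 of all genes higher and 3229 lower. With every array it called 695 and 4922 of all genes. With the arrays also centred on their medians, 7 members were called higher and 1 lower (all genes 8.56% and 16.8%). With quantile normalization the counts were 11 and 1 (all genes 12.5% and 19.4%), and with a common trimmed mean 20 and 1 (all genes 13.8% and 21.6%). Across the deposited scale and these 3 scalings, Gins4, Lig1, Asf1b and Pcna were called higher in all 4 and Pold2 lower in all 4. The other 7 lower calls were made on the deposited scale alone. The members' median moved above 0 under each of the 3 scalings (0.28 to 0.37), and stayed above that of all genes by 0.35 to 0.46.

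**Figure D2:**
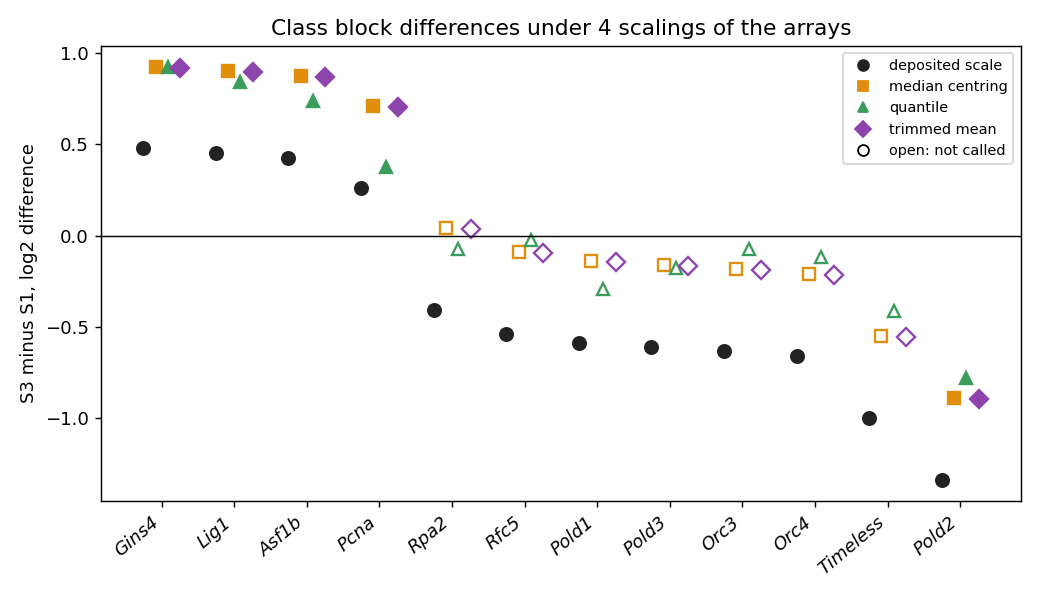
S3 minus S1 log2 difference, with the array class as a block, of the 12 members called on the deposited scale, under 4 scalings of the arrays (filled where called, open where not). Gins4, Lig1, Asf1b and Pcna stay above 0 and filled, Pold2 stays below 0 and filled, and the other 7 become open once the arrays are rescaled.

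Of 6 origin recognition genes, 2 were called lower within classes and 0 higher, against 41.2% and 5.81% of all genes. Orc1, the large subunit whose level is cell cycle regulated, read 8.01, 5.24 and 7.68 on the 3 S3 arrays, against 5.58, 5.97 and 7.57 on the 3 S1 arrays. Its gates overlapped and the array class separated its values, since the low S3 array and both low S1 arrays were short (class block change -0.13 ± 0.25 (SE), limma adjusted p = 0.711). Orc3 read 8.16, 6.10 and 7.87 in S3, against 6.61, 6.90 and 8.63 in S1, with overlap, the same class pattern and a plain difference of -0.00. Within classes Orc3 fell by 0.63 (SE 0.19, limma adjusted p = 0.0177), by 0.65 among short and 0.61 among long arrays. Orc4 read 7.55, 7.13 and 7.63 in S3, against 7.30, 7.98 and 8.40 in S1. The gates overlapped, but each S3 array lay below the S1 arrays of its class, and Orc4 fell by 0.66 (SE 0.21, limma adjusted p = 0.0254). All 5 dimmer probe sets of Orc3 and Orc4 had the same sign (-1.48 to -0.54 within classes), 3 of them called. Orc3 lost its call without S3 replicate 2 (limma adjusted p = 0.140), S3 replicate 3 (0.0679) or S1 replicate 3 (0.129), and Orc4 lost it when any array other than S1 replicate 1 was left out (limma adjusted p = 0.0529 to 0.267). After median centring the changes were -0.18 for Orc3 and -0.21 for Orc4, neither called. Orc2 lay lower in S3 with no overlap (8.65 to 8.79 in S3, 8.96 to 9.16 in S1), yet missed the threshold within classes (-0.34 ± 0.13, limma adjusted p = 0.0530), and Orc5 (-0.39) and Orc6 (-0.05) were not called.

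The licensing factors and their inhibitor gave no call. Cdt1, the MCM loader, read 10.14, 10.21 and 10.23 in S3, against 10.23, 10.28 and 10.30 in S1, so its gates just failed to overlap at a difference of -0.08 ± 0.09 (SE, limma adjusted p = 0.644). Cdc6, the ATPase that works with Cdt1, read 9.52, 7.20 and 9.54 in S3, against 7.75, 6.63 and 9.39 in S1. Its plain difference of 0.83 (limma adjusted p = 0.596) shrank to 0.08 ± 0.25 within classes, and its long arrays read 2.26 above its short ones, the widest class gap of all members. Gmnn, the Cdt1 inhibitor, read 10.36, 8.80 and 10.28 in S3, against 8.50, 9.05 and 10.38 in S1. Within classes it differed by -0.02 ± 0.15 (SE, limma adjusted p = 0.919). For both Cdc6 and Gmnn the gates overlapped. Under the trimmed mean with the class block, Cdt1 turned to 0.36 and was called higher, as was Gmnn (0.42).

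None of the 6 MCM ring subunits, which together unwind DNA, was called on the deposited scale. Mcm2 read 9.79, 9.41 and 10.08 in S3, against 9.75, 9.26 and 9.92 in S1. Mcm3 read 10.18, 9.35 and 10.18 in S3, against 10.02, 9.61 and 10.26 in S1. Mcm4 read 10.50, 10.47 and 10.59 in S3, against 10.61, 10.36 and 10.55 in S1. For these 3 subunits the gates overlapped. Mcm5 read 10.18, 9.83 and 10.10 in S3, against 9.94, 9.93 and 10.10 in S1. Mcm6 read 10.45, 9.72 and 10.40 in S3, against 9.96, 9.58 and 10.51 in S1. Mcm7 read 10.42, 9.31 and 10.33 in S3, against 9.37, 9.09 and 10.32 in S1. Here too the gates overlapped. Within classes the 6 differences were -0.27 (Mcm3) to 0.07 (Mcm7), with limma adjusted p-values from 0.123 to 0.967. The tightest was Mcm4 at -0.01 ± 0.09 (SE). Under the trimmed mean with the class block, Mcm4, Mcm5, Mcm6 and Mcm7 were called higher (0.37 to 0.51), and with quantile normalization Mcm7 alone was (0.32).

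**Figure D3:**
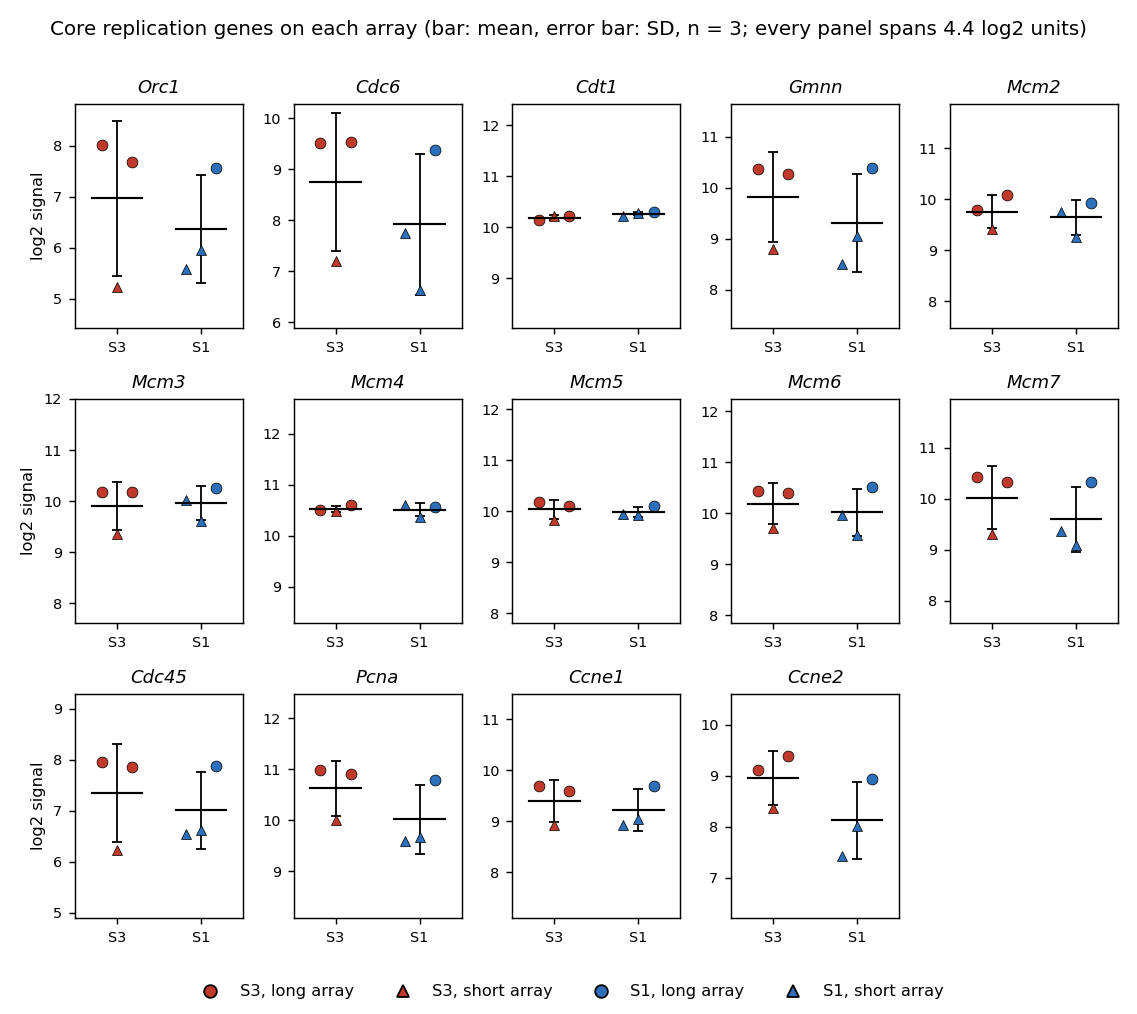
Log2 signal of 14 core replication genes on each of the 6 arrays, S3 left of S1, with circles for long and triangles for short arrays, the mean as a bar and the SD as an error bar (n = 3). In Orc1, Cdc6, Gmnn, Mcm7, Cdc45 and Pcna the triangles lie below the circles in both gates, whereas Cdt1 and Mcm4 are flat across all arrays.

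Among origin firing genes, Gins4 was the call on the deposited scale. Gins4, a subunit of the GINS complex of the active helicase, read 8.86, 9.03 and 8.77 in S3, against 8.32, 8.56 and 8.45 in S1. Every S3 array lay above every S1 array, and the difference within classes was 0.48 ± 0.14 (SE, limma adjusted p = 0.0164), or 0.59 among short and 0.37 among long arrays. The call was lost without S3 replicate 2 (0.37, limma adjusted p = 0.249) and without S1 replicate 3 (0.59, limma adjusted p = 0.0576). On the deposited scale the other GINS genes were not called, at 0.21 ± 0.11 (SE) for Gins1, whose gates did not overlap, and -0.15 for both Gins2 and Gins3. Cdc45, the helicase partner of GINS, read 7.95, 6.24 and 7.86 in S3, against 6.54, 6.62 and 7.88 in S1, with overlap and a difference of -0.16 ± 0.19 within classes (SE, limma adjusted p = 0.540). The cyclin E genes, whose product activates the kinase that fires origins, were not called on the deposited scale, and their gates overlapped. Ccne1 read 9.68, 8.92 and 9.60 in S3, against 8.92, 9.05 and 9.69 in S1, at -0.06 ± 0.11 within classes (SE, limma adjusted p = 0.718). Ccne2 read 9.11, 8.35 and 9.39 in S3, against 7.42, 8.01 and 8.93 in S1, at 0.48 ± 0.19 (SE, limma adjusted p = 0.0574), higher in S3 within both classes and just short of the threshold. Under all 3 other scalings with the class block, Ccne2 (0.92 to 0.93) and Gins1 (0.46 to 0.66) were called higher. Under the trimmed mean with the class block, so were Ccne1 (0.39) and Dbf4 (0.38). On the deposited scale Mcm10 (-0.34), Cdc7 (-0.19) and Dbf4 (-0.07) were not called. The difference between Ccne1 and Ccne2 was not tested. A dimmer probe set of Mcm10 was called lower within classes (-0.50, limma adjusted p = 0.0355), and another was at 0.02.

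Of 9 polymerase and primase genes, 3 were called lower within classes, against 41.2% of all genes. All 3 encode subunits of polymerase delta, which extends Okazaki fragments on the lagging strand. Pold4, a further subunit gene read among the companion genes below, was not called within classes (-0.49, limma adjusted p = 0.214). Pold2, an accessory subunit, read 7.10, 5.61 and 7.0 in S3, against 7.0, 6.91 and 8.39 in S1. The gates overlapped only through the array class, since the long S3 arrays (7.10 and 7.0) lay below the long S1 array (8.39) and the short S3 array (5.61) below the short S1 arrays. Pold2 fell by 1.34 within classes (SE 0.19, limma adjusted p = 0.000254), by 1.35 among short and 1.34 among long arrays. It was called in all 6 class block fits that left out an array (limma adjusted p = 0.000133 to 0.00901) and under the 3 other scalings (-0.90 to -0.78). In the plain fit it was not called (-0.86 ± 0.57 (SE), limma adjusted p = 0.380). Pold1, the catalytic subunit, read 8.71, 9.60 and 8.97 in S3, against 10.10, 10.03 and 9.56 in S1, with overlap only between the short S3 array and the long S1 array. It fell by 0.59 within classes (SE 0.12, limma adjusted p = 0.00261), and its dimmer probe set by 0.86. Pold3 read 8.53, 8.25 and 8.39 in S3, against 8.88, 8.67 and 9.15 in S1, with no overlap, and fell by 0.61 (SE 0.14, limma adjusted p = 0.00445). Its 2 dimmer probe sets did not follow (-0.14 and 0.05 within classes), and the mean of its probe sets was -0.23 (limma adjusted p = 0.245). Both Pold1 (limma adjusted p = 0.0798) and Pold3 (limma adjusted p = 0.0924) lost their call without S1 replicate 3, and median centring left -0.14 and -0.16, neither called.

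Polymerase alpha, which starts each new strand with primase, and polymerase epsilon of the leading strand were not called. Pole, the catalytic subunit of epsilon, came closest at -0.58 ± 0.22 (SE, limma adjusted p = 0.0503), with -0.97 among long and -0.19 among short arrays. Pole2 was at -0.08, Pola1 at -0.31 and Pola2 at -0.42 within classes. The primase subunits lay on the other side of 0, at 0.17 for Prim1 and 0.12 for Prim2. None of the 9 polymerase and primase genes was called higher within classes on the deposited scale. With the class block and quantile normalization, Prim1 (0.43) and Prim2 (0.44) were both called higher. They were also called under the trimmed mean (0.62 and 0.56), but not under median centring.

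Pcna, the sliding clamp that holds polymerases on DNA, read 10.98, 10.004 and 10.90 in S3, against 9.59, 9.67 and 10.79 in S1. The gates overlapped, but each S3 array lay above the S1 arrays of its class, and the difference within classes was 0.26 ± 0.09 (SE, limma adjusted p = 0.0396), with 0.37 among short and 0.15 among long arrays. The call held in 2 of 6 class block fits with an array left out, those without S1 replicate 1 or 2, and elsewhere the limma adjusted p was 0.0651 to 0.453. Of the clamp loader genes, Rfc5 read 8.56, 7.39 and 8.35 in S3, against 7.99, 7.95 and 8.95 in S1. The gates overlapped, and each S3 array lay below the S1 arrays of its class. Rfc5 fell by 0.54 within classes (SE 0.15, limma adjusted p = 0.0118), and lost the call without S3 replicate 2 (0.138) or S1 replicate 3 (0.0875), given as limma adjusted p. On the deposited scale the other loader subunits ran from -0.27 for Rfc1 to 0.26 for Rfc4 and were not called. Rfc4 was called higher under the 3 other scalings with the class block (0.59 to 0.70). Rfc1 (8.84 to 8.97 in S3, 9.07 to 9.20 in S1) and Rfc4 (9.39 to 9.56 in S3, 8.98 to 9.30 in S1) did not overlap between gates, in opposite directions.

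RPA is the single-strand binding complex. Of its 3 genes, 1 was called lower within classes and 0 higher, against 41.2% and 5.81% of all genes. Rpa2 read 9.39, 9.16 and 9.20 in S3, against 9.60, 9.51 and 9.72 in S1, with no overlap. It fell by 0.41 within classes (SE 0.11, limma adjusted p = 0.0118), and its dimmer probe set gave -0.35, not called. Median centring (0.04) and the trimmed mean (0.03) turned its sign, and leaving out S3 replicate 2 or S1 replicate 3 ended the call (limma adjusted p = 0.101 and 0.126). Rpa1, the large subunit, was at 0.04 ± 0.09 (SE) and Rpa3 at -0.14 ± 0.20 (SE), neither called on the deposited scale. With the class block, Rpa1 was called higher under quantile normalization (0.25) and the trimmed mean (0.48). Whether the 3 subunits differ from each other was not tested.

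Of the enzymes that finish Okazaki fragments, the ligase was called and the flap nuclease was not on the deposited scale. Lig1, the ligase that seals the nicks, read 9.60, 8.95 and 9.46 in S3, against 8.30, 8.51 and 9.17 in S1. The gates overlapped, but within each class every S3 array lay above every S1 array, and Lig1 rose by 0.45 ± 0.13 (SE, limma adjusted p = 0.0146), by 0.55 among short and 0.36 among long arrays. The call was lost without S3 replicate 1 (limma adjusted p = 0.0509), S3 replicate 2 (0.217) or S1 replicate 3 (0.0625). Fen1, the flap nuclease, was among the flattest members on that scale (10.55 to 10.69 in S3, 10.55 to 10.69 in S1, change 0.02 ± 0.08 (SE)). Under the trimmed mean with the class block Fen1 was called higher (0.46).

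Asf1b, a histone chaperone of dividing cells that hands histones to the chromatin assembly factor, read 9.89, 9.63 and 9.84 in S3, against 9.13, 9.29 and 9.43 in S1. The gates did not overlap, and Asf1b rose within classes by 0.43 ± 0.11 (SE, limma adjusted p = 0.00766), by 0.42 among short and 0.43 among long arrays. Only leaving out S3 replicate 2 (limma adjusted p = 0.0932) or S1 replicate 3 (0.0838) ended the call among the 6 left-out arrays. Chaf1b, a subunit of that assembly factor, was not called (-0.12 ± 0.21 (SE)). Of the fork protection pair, Timeless read 6.64, 4.64 and 6.52 in S3, against 5.59, 5.64 and 7.60 in S1. The gates overlapped through the class pattern. Within classes Timeless fell by 1.00 (SE 0.22, limma adjusted p = 0.00413), with -0.97 among short and -1.02 among long arrays, and its dimmer probe set by 0.97. The call was lost without S1 replicate 3 (limma adjusted p = 0.0583) and after median centring, at -0.55. Tipin, its binding partner, was at 0.01 ± 0.14 (SE, limma adjusted p = 0.960), and was called higher under the trimmed mean with the class block (0.45).

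**Figure D4:**
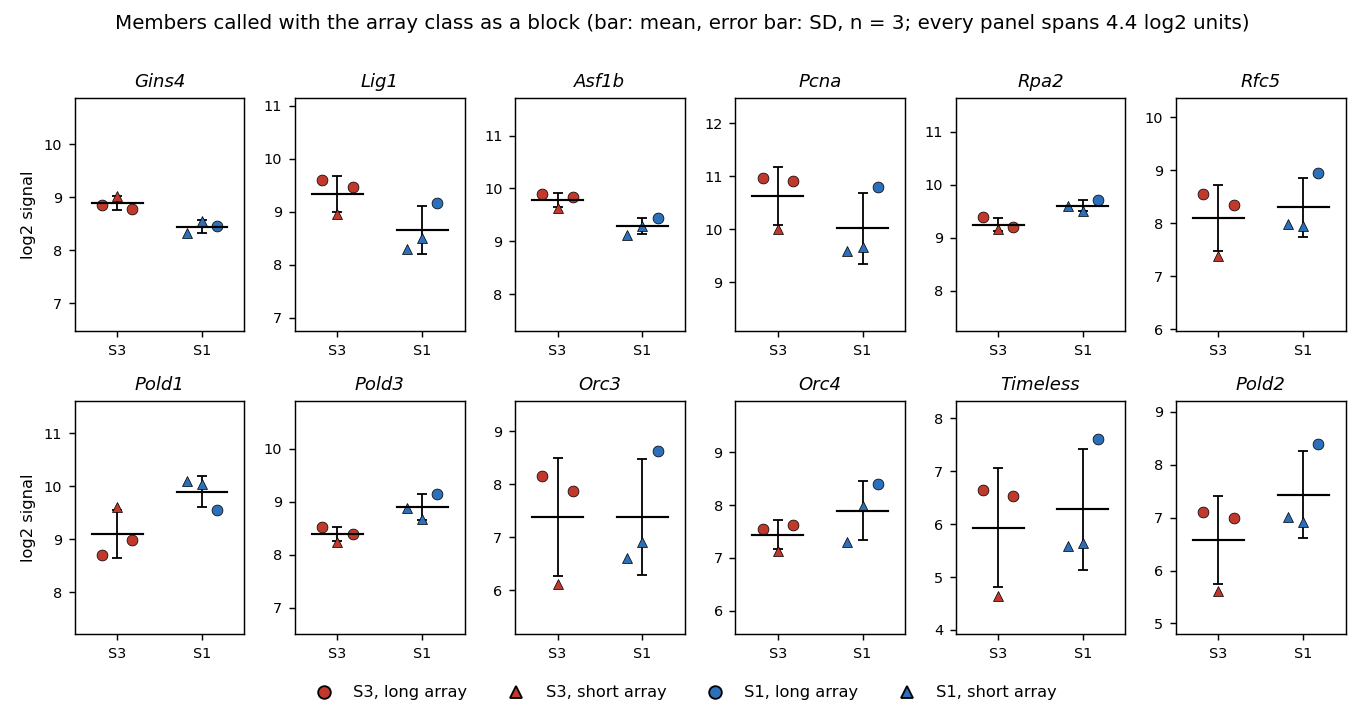
Log2 signal on each array of the 12 members called with the array class as a block, S3 left of S1, circles for long and triangles for short arrays, the mean as a bar and the SD as an error bar (n = 3). In Gins4 and Asf1b every S3 array lies above every S1 array, and in Pold2 and Timeless each S3 symbol lies below the S1 symbols of its own shape.

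The spread over single arrays and probe sets was as follows. Every S3 array lay above every S1 array for 4 members (Gins1, Gins4, Rfc4 and Asf1b, 8.16%, against 5.81% of all genes). Every S3 array lay below every S1 array for 5 members (Orc2, Cdt1, Pold3, Rfc1 and Rpa2, 10.2%, against 29.5% of all genes). Of 49 dimmer probe sets of 33 members, 36 had the same sign as the brightest within classes, and none was called in the opposite direction. Gins4, Lig1, Asf1b, Pcna, Pold2 and Rfc5 had a single tested probe set, so that no second reading was available for the 5 members called under every scaling.

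**Figure D5:**
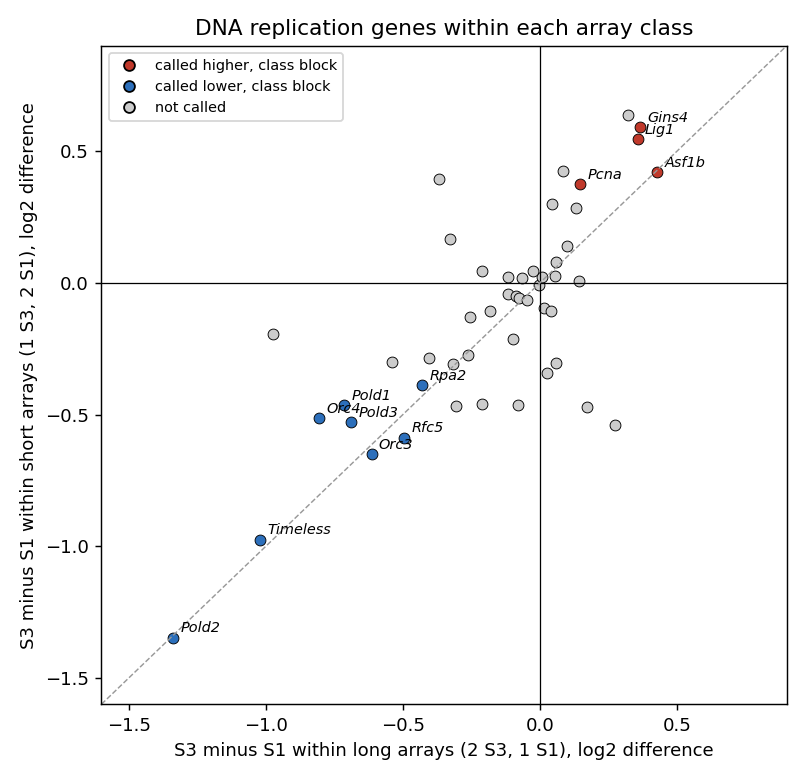
S3 minus S1 log2 difference of each of the 49 members among long arrays (horizontal axis) and among short arrays (vertical axis), with the line of equality dashed. Pold2 lies on that line at -1.34 and -1.35 and Timeless close to it at -1.02 and -0.97, while most members not called cluster around 0.

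Companion genes of replication were read in the same way. Of 23 other replication genes, 0 were called in the plain fit by limma with 2 at an unadjusted p under 0.05, and 2 were higher and 4 lower within classes, where 5.81% of all genes were higher and 41.2% lower. The 4 lower genes, named after their values were seen, were Mcmbp (-0.82), Dna2 (-0.72), Mcm8 (-0.91) and Recql4 (-1.01). None of these 4 was called after median centring with the block (-0.56 to -0.28, limma adjusted p = 0.343 to 0.540). Donson, a replisome factor, had the smallest p in the plain fit (0.71 ± 0.26 (SE), limma adjusted p = 0.115). Within classes Donson was called higher (0.54 ± 0.15 (SE), limma adjusted p = 0.0114). Donson lost that call without S3 replicate 2 (limma adjusted p = 0.131), S3 replicate 3 (0.0505) or S1 replicate 3 (0.0903), and the mean of its probe sets was 1.39. Of 7 nucleotide supply genes, 0 were called in the plain fit by limma with 2 at an unadjusted p under 0.05, and 1 was higher and 2 lower within classes, against the same shares of all genes. The 2 lower ones, named in the same way, were Dut (-0.41) and Dctpp1 (-0.47). Dck, the deoxycytidine kinase, had the smallest p in the plain fit and was higher within classes (0.38 ± 0.12 (SE), limma adjusted p = 0.0257). Dck lost that call without S3 replicate 2 (0.24, limma adjusted p = 0.355), S3 replicate 3 (0.0924) or S1 replicate 3 (0.0527), and the mean of its probe sets was 0.64. After median centring with the block, Dut (0.03) and Dctpp1 (-0.02) were not called, whereas Donson (0.99) and Dck (0.83) stayed called higher.

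In the companion lists, Cdc25a and Nasp fell in the plain fit already. Cdc25a, the phosphatase that activates the S phase kinase, read 7.49, 7.21 and 7.59 in S3, against 9.07, 8.25 and 8.49 in S1. Its gates did not overlap, and it was the single called gene of 5 in the S phase kinase list (-1.18 ± 0.29 (SE), limma adjusted p = 0.0341, or -1.20 within classes). Each left-out array ended that plain call (limma adjusted p = 0.0608 to 0.123), and so did each rescaling without the block (0.0974 to 0.163). Nasp, a histone chaperone, read 8.79, 9.03 and 8.72 in S3, against 9.71, 9.76 and 9.62 in S1, the single called gene of 6 histone chaperones (-0.85 ± 0.15 (SE), limma adjusted p = 0.0112). Its plain call was lost without S1 replicate 1 (limma adjusted p = 0.0576) or S1 replicate 2 (0.0596), and under each rescaling without the block (0.0940 to 0.338). Within classes, 1 of the 5 S phase kinase genes was called higher and 3 lower, and 0 of the 6 histone chaperones higher and 2 lower. Of all genes, 5.81% were called higher and 41.2% lower in that fit. Ccna2, a cyclin of S phase named after its values were seen, was the higher one (0.32 ± 0.09 (SE), limma adjusted p = 0.0153). Skp2, a ubiquitin ligase subunit named in the same way, fell by 1.72 within classes (SE 0.22, limma adjusted p = 0.000153) and was not called in the plain fit (adjusted p = 0.0788). Cdc25a, Nasp, Cks1b (-0.33) and Rbbp7 (-0.43) were the other lower calls within classes. After median centring with the block, Cks1b (0.11), Rbbp7 (0.02) and Nasp (-0.34) were not called. Cdc25a (-0.75) and Skp2 (-1.27) stayed called lower, and Ccna2 (0.76) higher.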

How the data were processed

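RNA of sorted S3 and S1 cells was amplified, labelled with biotin and hybridised to Affymetrix whole-genome mouse arrays, per the labels. The authors made MAS5 signals and normalized each array to its ribosomal 18S, beta-actin and Gapdh readings, per the labels' design text. The deposited values are log2 signals (the base is not stated and was taken from their size). Their MAS5 version was not given in the sources used here. Of 45101 probe sets, 34945 had 1 symbol.

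A gene was tested if its brightest probe set averaged over 1.12 (log2), which is the 40th percentile without control probe sets. The S3 minus S1 difference came from limma 3.58.1 in R 4.3.3 (lmFit, then eBayes with trend). Two-sided p-values of the 11959 genes were adjusted by Benjamini-Hochberg and called under 0.05. The plan named this fit without a block as the main one. The array class (actin 5′ minus 3′ log2 signal below or above -1.5) was a planned block. Background was the 95th percentile, per array, of 27 bacterial control probe sets. The number of arrays (3 per gate) limits the precision. The fits were tested on simulated data in which 100 of 11959 genes were changed at each size, and neither made a false call. The plain fit recovered 0% of changes of log2 1 and 10% of log2 2, the block fit 20% and 55%. The simulated noise was drawn for each gene separately, with no scale shift of a whole array apart from the array class. False calls from such a shift therefore could not show in this test. Fewer genes were changed there than were called in the data. The adjustment is stricter then, so these recoveries need not hold for the data.

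Members and lists were chosen with earlier results of these data known. Values on every array are given for 14 core genes named in the analysis plan, to which no member called in the plain fit was added, as there was none. Members called in the class block fit were given in the same way after their values were seen. From each companion list up to 4 genes called in the plain fit, or the gene with the smallest p, are named. Other companion genes were named after their values were seen. Alternatives were median centring, quantile normalization, a 2% trimmed mean, other filters, an added constant, other variance models, the replicate number as a block, averaging the probe sets of a gene, each array class alone and each array left out. Combinations of the class block with other choices than median centring were added after seeing the data.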

Additional observations from a re-analysis of the deposited data

How the results depend on the processing

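Against 0 members higher and 0 lower in the plain fit, median centring gave 1 higher, quantile normalization 3, the trimmed mean 4, the 60th percentile filter 1 and the long arrays alone 1. Lower members numbered 8 among the long arrays alone and 1 among the short arrays alone, where 4151 and 2601 of all genes were lower. In each of these fits the gate with a single array (S1 among long, S3 among short) has no replicate, and its array is assumed to vary like the others. The class block gave 4 higher and 8 lower, and with median centring 7 and 1. With quantile normalization it gave 11 and 1, and with the trimmed mean 20 and 1. With the mean of a gene's probe sets it gave 3 and 8, among 642 genes higher and 4315 lower. Plain fits with an array left out gave 0 higher members and 0 to 1 lower, among 119 to 370 genes higher and 541 to 1273 lower. Under the 60th percentile filter 314 of all genes were higher and 1493 lower. With the class block, leaving out S3 replicate 1 gave 2 higher and 7 lower, S3 replicate 2 gave 0 higher and 5 lower, and S3 replicate 3 gave 3 higher and 6 lower. Leaving out S1 replicate 1 gave 4 higher and 10 lower, S1 replicate 2 gave 5 higher and 8 lower, and S1 replicate 3 gave 0 higher and 1 lower. Of all genes, these class block fits called 355 to 784 higher and 2877 to 5297 lower, against 695 and 4922 with every array. The members' median change was 0.18, and ran from -0.15 to 0.42 over the fits with an array left out, plain or blocked. Cdt1 was -0.08 in the plain fit and 0.36 with the class block and trimmed mean. The sign of members called in neither fit also turned, and is counted here as no reversal: 31 of 49 lay above 0 in the plain fit and 15 with the class block. Rescaling moved the plain median of all genes to -0.10 under median centring, -0.07 under quantile normalization and -0.06 under the trimmed mean, against -0.33, and the counts of all genes called higher and lower to 478 and 972, 698 and 1127, and 616 and 1137, against 302 and 1533. The cause of these shifts was not tested.

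Whether the replicate numbers pair the arrays could not be told. Deviations of same-numbered S3 and S1 arrays correlated at -0.19, 0.36 and 0.43. Over all pairs of an S3 and an S1 array, the correlation was 0.28 to 0.43 within a class. Between classes it was -0.58 to -0.19, so these values follow the array class and cannot show pairing. With the replicate block 0 members were called higher and 0 lower, among 412 genes higher and 1897 lower. Among companion genes the block moved Donson (limma adjusted p = 0.0411), Dck (0.0404) and Skp2 (0.0489) past the threshold. Cdc25a and Nasp also lost their plain call with no intensity trend (limma adjusted p = 0.0572 and 0.0597) and with the mean of their probe sets (0.287 and 0.530). With 3 arrays per gate in 2 array classes, the number of arrays limits how small a difference can be seen.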
